A study of Homo sapiens with 10 samples.

Results

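TNRC18 (ENSG00000182095) is 1 of the 13808 genes, and 1 of the 14785 rows, of a deposited RNA-seq table of human embryonic stem cells. Its row was found by its symbol in the table of single libraries, and the gene was chosen by its measured values: it stood among the highest differences when SMARCA4 was knocked down. That difference is therefore described here without a test. The remaining 977 rows of the table are repeats, and the 274 subfamilies of the endogenous retrovirus class ERV1 serve as context.

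All groups were cells of the human embryonic stem cell line H1, with a genotype labelled as wild type. Cells carried a short hairpin RNA (shRNA) against SMARCA4, MAFK, E2F6 or KDM1A. The control hairpin (shLUC) was directed against luciferase, a firefly enzyme absent from human cells. The virus was packaged in 293T cells, and puromycin selection was shared by every group, the control included. Each of the 5 groups had 2 libraries, 10 in all, which the submitters describe as biological replicates of a single cell line. The number of hairpins per target and their sequences are not given in the sources used here.

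TNRC18 encodes a large nuclear protein with a bromo-adjacent homology (BAH) domain. This domain reads the histone mark H3K9me3, the chief mark of constitutive heterochromatin, and the protein works with histone deacetylase corepressors in the silencing of ERV1 elements. Its closest paralog, BAHCC1, carries a related BAH domain and was not analysed here. SMARCA4 is the ATPase of the BAF chromatin remodelling complexes, MAFK a small MAF transcription factor, E2F6 a repressive E2F factor and KDM1A a histone lysine demethylase.

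In GENCODE release 29 the gene lies on the minus strand of chromosome 7, from 5306790 to 5425414 (GRCh38), and spans 118.6 kb with 10 annotated transcripts. The transcript TNRC18-205 has 30 exons and 10562 bases of exon. The last 81 bases of the gene overlap the end of SLC29A4 on the other strand, and a pair of antisense genes that have no row in the table, AC093620.1 and AC092171.1, lie inside it. The pseudogenes TNRC18P1, TNRC18P2 and TNRC18P3 also have no row. How the authors divided reads between strands or between the gene and its pseudogenes is not stated, so the TNRC18 value may hold reads of these features.

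The 250 bases before the RefSeq start of TNRC18 are shown because they are the core promoter region of a transcript whose level varied widely between the groups. They lie at chr7:5423835-5424084 on the minus strand of GRCh38.p14 and are printed 5′ to 3′ along the gene, from RefSeq. Capitals mark the CCAAT box, read as CCAAT on either strand, and the GC box, read as GGGCGG on either strand.
TNRC18 promoter: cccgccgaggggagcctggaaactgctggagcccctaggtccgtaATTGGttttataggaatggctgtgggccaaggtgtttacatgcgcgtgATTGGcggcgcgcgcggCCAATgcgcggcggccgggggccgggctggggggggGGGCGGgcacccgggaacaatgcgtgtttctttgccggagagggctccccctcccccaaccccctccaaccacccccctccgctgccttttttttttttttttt
The window held 3 CCAAT matches, whose first bases lay 205, 157 and 140 bases before the start, and 1 GC box, 104 bases before it. Of the 35116 promoter windows of the same length, 32% held a CCAAT match and 42.6% a GC box. The E2F forms TTCCCGC and TTGGCGC, the MAF motif TGCTGA and the E-box CACGTG were searched on both strands and had no match in this window. They were found in 5.52%, 2.56%, 14% and 6.34% of all windows. The GC content was 64.8% with 20 CpG sites, against a median of 11 CpG sites in all windows. The GENCODE start of TNRC18-205 lies 288 bases downstream of the RefSeq start, and that of TNRC18-202 lies 1580 bases upstream, so the window covers neither.

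The deposited values are whole numbers normalized by the authors, not raw counts, and are called normalized values here. Library totals lay between 22836548 and 22855295 and every library had the same median of 594, which the normalization fixed, so the read depth is unknown. The targeted transcript was checked first. SMARCA4 had normalized values of 1100 and 985 in shSMARCA4 and of 8086 and 8374 in shLUC, and fell by 2.98 on the log2(value + 1) scale (limma adjusted p 8.55e-05). KDM1A had 3290 and 1879 in shKDM1A against 6344 and 5925, and E2F6 had 336 and 304 in shE2F6 against 491 and 553. MAFK had 82 and 216 in shMAFK against 212 and 288, so the pairs overlapped for that target. These last 3 targets did not pass the threshold (limma adjusted p 0.132, 0.774 and 0.572). The shKDM1A libraries differed most from each other: their SD over all rows, on the log2(value + 1) scale, was 0.53, against 0.264 to 0.335 in the other groups. All 17 pluripotency markers listed were in the table, none was at 0 in any library, and the lowest value of the defining factor POU5F1 was 16615.

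TNRC18 had low values in control cells and after E2F6 knockdown, higher values in the MAFK and KDM1A knockdown libraries and its highest values after SMARCA4 knockdown. The shLUC libraries held normalized values of 72 and 101 (mean 86.5 ± 20.5, SD, n = 2). The shSMARCA4 libraries held 948 and 942 (945 ± 4.24), which is 10.9 times the control mean. Both shSMARCA4 values lay above all other libraries, and they differed from each other by a ratio of only 1.01.

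In shMAFK the values were 254 and 230 (242 ± 17), or 2.80 times the control mean. In shKDM1A they were 336 and 158 (247 ± 126), or 2.86 times the control mean. Both groups lay above both control libraries without overlap, although the shKDM1A pair was spread widely. The shE2F6 libraries held 83 and 58 (70.5 ± 17.7), and this group overlapped with the control.

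**Figure D1:**
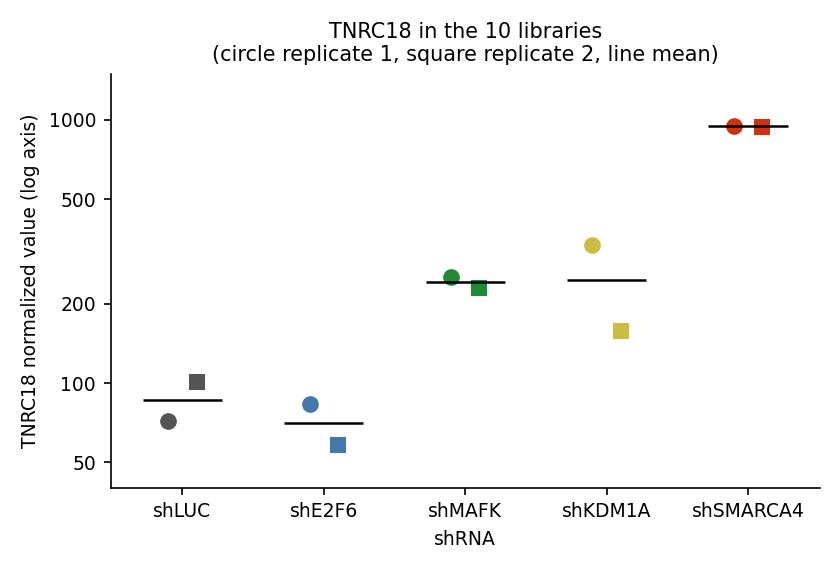
Normalized values of TNRC18 (log axis) in each of the 10 libraries by shRNA; circles are replicate 1, squares replicate 2 and lines the mean of 2 libraries. The shSMARCA4 libraries at 948 and 942 stand above the 4 libraries of shMAFK and shKDM1A (158 to 336), and the 4 libraries of shLUC and shE2F6 are lowest (58 to 101).

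The place of TNRC18 among the genes of a library moved with its value. In the control libraries 4.06% and 9.09% of genes had a lower value, and in shE2F6 6.17% and 2.35%. In shMAFK the shares were 26.7% and 24.5%, and in shKDM1A 33.2% and 17.3%. In both shSMARCA4 libraries they reached 64.5% and 64.6%. These positions use values that are not divided by transcript length, so they describe the table and not relative transcript abundance.

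The ratio of single libraries gives the range behind each mean. A shSMARCA4 library had from 9.33 to 13.2 times the value of a shLUC library. The ratio ran from 2.28 to 3.53 for shMAFK, from 1.56 to 4.67 for shKDM1A and from 0.574 to 1.15 for shE2F6. Replicates of the 2068 rows with a mean within 0.5 of TNRC18 on the log2 scale had a median SD of 0.127 in shLUC and 0.276 in shKDM1A. TNRC18 itself had an SD of 0.341 in shLUC, 0.36 in shE2F6 and 0.766 in shKDM1A, above those medians, and of 0.00647 in shSMARCA4. With 2 libraries a group, such an SD is poorly known.

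On the log2(value + 1) scale TNRC18 was 3.45 higher in shSMARCA4 than in shLUC. This was the difference that led to its choice, and it ranked 13 from the top among all rows. Of all rows, 4.18% passed the threshold in that comparison (limma adjusted p under 0.05, either direction), and 25.6% had both shSMARCA4 values above both controls. Against the other knockdowns, the shSMARCA4 mean was 1.96 higher than shMAFK, 2.03 higher than shKDM1A and 3.75 higher than shE2F6 on the log2 scale. These comparisons share the shSMARCA4 libraries used in the choice, so they too are given without a test. The RNA came from whole cultures, where a change in the share of cells that express the gene and a change in its RNA per cell cannot be told apart.

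The other 3 knockdowns were tested against shLUC with limma, with p-values adjusted over all 14785 rows. They share the 2 control libraries with the comparison that led to the choice of the gene, so they are not independent of it. TNRC18 had a log2 difference of 1.49 in shMAFK (SE 0.34, 95% interval 0.72 to 2.26), higher in both libraries, with a limma adjusted p of 0.177. In shKDM1A the log2 difference was 1.42 (SE 0.34, interval 0.66 to 2.19), higher in both libraries, with a limma adjusted p of 0.245. Neither passed the threshold, which 0.0135% of rows passed for shMAFK and 0.0271% for shKDM1A. Rows with both values above both controls made up 23.8% and 17.9% of the table.

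In shE2F6 the log2 difference was -0.29 (SE 0.34, interval -1.06 to 0.47), with a limma adjusted p of 1. In that comparison 0% of rows passed, and 20.3% had both values above both controls. The 3 fits share 1 estimate of the spread that includes the variable shKDM1A pair. Among the other fits, the shMAFK difference from shLUC passed in 2 and did not pass in 19. The shKDM1A difference from shLUC passed in 1 and did not pass in 19. With a separate weight for each group, the limma adjusted p for shMAFK was 0.0101 (3.29% of all rows passed), and without shKDM1A replicate 2 it was 0.0471 (0.25% passed). Without shKDM1A replicate 2, the shKDM1A difference was 1.97 with a limma adjusted p of 0.00281, in a fit in which 21.9% of all rows passed. It then rested on 1 library assumed to vary like the other groups.

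The other 3 comparisons took their differences from none of the libraries behind the choice of the gene. Their SE, intervals and p-values are not free of it, because the shared estimate of the spread includes the shSMARCA4 and shLUC libraries. TNRC18 was 1.79 higher in shMAFK than in shE2F6 on the log2 scale (SE 0.34, interval 1.02 to 2.55), with a limma adjusted p of 0.0658. It was 1.72 higher in shKDM1A than in shE2F6 (SE 0.34, interval 0.95 to 2.49), with a limma adjusted p of 0.104. Between shKDM1A and shMAFK the difference was -0.07 (interval -0.84 to 0.70), with a limma adjusted p of 0.941. The threshold was passed by 0.487%, 0.129% and 0.0406% of rows in these comparisons.

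Among the other fits, the difference between shKDM1A and shE2F6 passed in 1 and did not pass in 19. The difference between shMAFK and shE2F6 passed in 4 other fits and did not pass in 17. Its limma adjusted p was 0.00792 with group weights, 0.016 without both shKDM1A libraries, and 0.0166 and 0.0151 without shKDM1A replicate 1 or 2. In these fits 4.06%, 2.3%, 2.39% and 2.45% of all rows passed. That between shKDM1A and shE2F6 passed without shKDM1A replicate 2, with a log2 difference of 2.26 and a limma adjusted p of 0.00162, in a fit in which 24.2% of all rows passed. In the order of mean log2 levels, shSMARCA4 came first, followed by shMAFK and shKDM1A, and then by shLUC and shE2F6. The interval of the difference between shMAFK and shKDM1A includes 0, and so does that between shLUC and shE2F6.

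**Figure D2:**
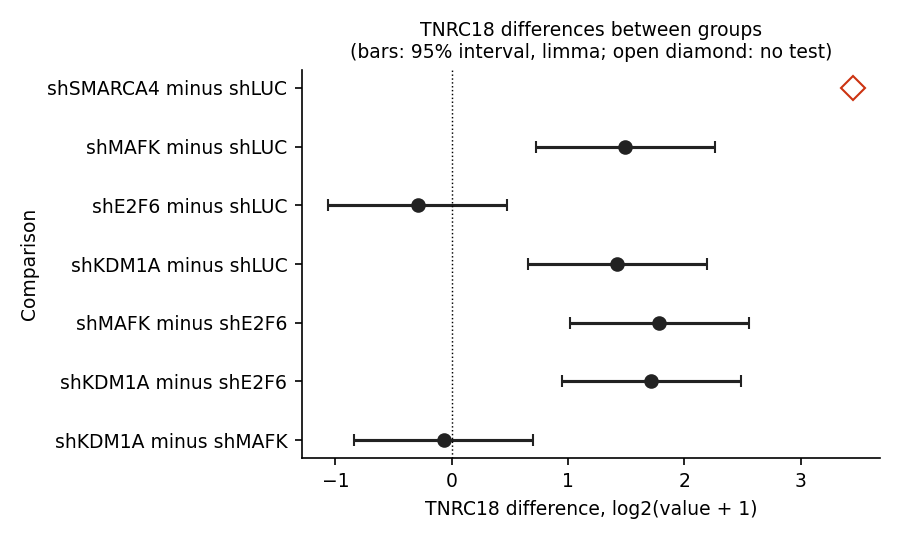
Differences of TNRC18 between groups on the log2(value + 1) scale; filled points are limma estimates with 95% intervals, and the open diamond is the difference that led to the choice of the gene, shown without an interval. The intervals of shE2F6 minus shLUC and of shKDM1A minus shMAFK include 0, and the other 4 intervals, which are not adjusted for the number of rows, lie above 0.

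Markers of other cell types moved in the same libraries. Of 13 mesendoderm markers listed, 5 were in the table (MIXL1, EOMES, FOXA2, CER1 and NODAL). All 5 had both shSMARCA4 values above both controls, against 25.6% of all rows. The lowest row mean of the table was 19.3, and FOXA2 and MIXL1 had shLUC means of 3 and 17. Such rows may be in the table only through their shSMARCA4 values, so this share and their calls are a description. The summed value of the 5 markers was 220 and 162 in shLUC, 9497 and 1862 in shSMARCA4, and 69 to 336 in the other knockdowns. FOXA2, an endoderm transcription factor, had 4 and 2 in shLUC and 792 and 170 in shSMARCA4, and was at 0 in 4 of the 6 libraries of the other knockdowns. EOMES, a T-box transcription factor, had 14 and 34 in shLUC and 2430 and 724 in shSMARCA4. FOXA2 and EOMES did not pass (log2 differences 6.57 and 5.86, limma adjusted p 0.359 and 0.151). The sum differed 5.10-fold between the shSMARCA4 libraries, and TNRC18 by a ratio of 1.01. This is 1 pair of libraries, and a relation between the sum and TNRC18 was not tested. MIXL1, a mesendoderm transcription factor, and NODAL, a ligand of the TGF-beta family, rose past the threshold (log2 differences 4.79 and 3.39, limma adjusted p 0.0365 and 0.0133). Both calls were lost without either shLUC library or without shSMARCA4 replicate 1, where the log2 differences were 2.91 and 2.56. That of MIXL1 was also lost without any single library of shE2F6 or shMAFK.

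ZIC1, a neural transcription factor, rose by 2.51 (limma adjusted p 0.0147) and was the only 1 of 7 neural ectoderm markers in the table to pass, while TUBB3, a neuronal tubulin, was at -0.99 (limma adjusted p 0.144). The ZIC1 call was lost without either shLUC library or without shSMARCA4 replicate 2. The neural sum was 12326 and 11007 in shLUC and 10230 and 7637 in shSMARCA4. KRT7, an epithelial keratin and the only trophoblast marker of 10 listed that was in the table, fell by 2.77 (limma adjusted p 0.00463, and 0.0677 without shLUC replicate 2). Of 17 pluripotency markers 0 passed with limma, and 7 (41.2%, against 16.3% of all rows) had an unadjusted p under 0.05, 6 of them with lower values. Both shSMARCA4 values lay below both controls for 10 of the 17 (58.8%, against 25.4% of all rows). The summed pluripotency value was 203325 and 180584 in shSMARCA4 and 213670 and 228356 in shLUC. PRDM14, a transcription factor, had the largest log2 difference of that list (-1.10, limma adjusted p 0.311). The part of these cell types in the TNRC18 values was not tested. In shMAFK the mesendoderm sums were 95 and 69, and all 5 markers lay below both controls, against 25.3% of all rows. Their median log2 difference was -1.95, 0 passed with limma and 0 had an unadjusted p under 0.05. Some were near 0 in the controls already, as FOXA2 at 4 and 2. In shKDM1A the sums were 336 and 134, on either side of the controls.

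Genes that work with or beside TNRC18 were examined as 5 lists, 47 genes of the table in all, with 4 comparisons against shLUC each. Of the 188 tests 1 passed over all rows and 14 had an unadjusted p under 0.05. The latter were 4 of the 47 genes in shSMARCA4 and in shKDM1A (8.51%), and 3 in shMAFK and in shE2F6 (6.38%). Over all rows these shares were 16.3% and 11.5% for shSMARCA4 and shKDM1A, and 8.77% and 5.09% for shMAFK and shE2F6. The 47 genes together thus lay near or below the background, though not every single list did. The list medians lay between -0.25 and 0.30 on the log2 scale in every comparison, where the median of all rows lay between -0.02 and 0.01.

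The other BAH domain genes numbered 9 of 10 in the table, and 0 passed with limma in any comparison, with 1 at an unadjusted p under 0.05 in shSMARCA4 and 1 in shE2F6. The largest difference in shSMARCA4 was that of BAHD1, a heterochromatin protein. It had normalized values of 1340 and 1510 in shLUC and of 958 and 799 in shSMARCA4 (log2 difference -0.70, SE 0.19, limma adjusted p 0.0806). ORC1, the BAH subunit of the origin recognition complex, was at 0.40 with a limma adjusted p of 0.314. The median of the list in shSMARCA4 was 0.21. Both shSMARCA4 values lay above both controls for 6 of the 9 (66.7%, against 25.6% of all rows). They lay below both for the other 3 (33.3%, against 25.4%). In shMAFK, shE2F6 and shKDM1A the shares above were 22.2%, 22.2% and 0%, and those below 22.2%, 44.4% and 33.3%.

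Of the 22 corepressor genes, subunits of the HDAC3-NCoR and SIN3 complexes, 0 passed with limma in any comparison, with 1 each at an unadjusted p under 0.05 in shSMARCA4, shE2F6 and shKDM1A and 0 in shMAFK. HDAC2, a deacetylase, had 8496 and 9502 in shLUC and 7440 and 5788 in shSMARCA4 (log2 difference -0.45, limma adjusted p 0.168). ING1, a reader subunit of the SIN3 complex, was at -0.42 with a limma adjusted p of 0.396. The median of the list was 0.06 in shSMARCA4 and -0.14 in shKDM1A.

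Of the 5 H3K9me3 writers and their cofactors 0 passed with limma, with 1 at an unadjusted p under 0.05 in shMAFK and 1 in shKDM1A. TRIM28, the corepressor that brings the methyltransferase SETDB1 to KRAB zinc finger proteins, had 19692 and 18607 in shLUC and 23453 and 25021 in shSMARCA4. Its log2 difference was 0.34 (limma adjusted p 0.494). ATF7IP, the partner of SETDB1, was at 0.12 (limma adjusted p 0.877). Of the 7 readers of the mark other than TNRC18, 0 passed with limma, with 1 in shSMARCA4 and 1 in shMAFK at an unadjusted p under 0.05. CBX5, which encodes the heterochromatin protein HP1 alpha, had 12340 and 13159 in shLUC and 18607 and 25021 in shSMARCA4 (log2 difference 0.76, limma adjusted p 0.157). ATRX, a chromatin remodeller that binds the mark, was at 0.25 (limma adjusted p 0.752).

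Of the 4 demethylases of the mark, KDM4C passed in shSMARCA4. An unadjusted p under 0.05 was found for 1 each in shSMARCA4, shMAFK and shE2F6 (25%, against 16.3%, 8.77% and 5.09% of all rows). In shKDM1A there were 2, both higher (50%, against 11.5%), in a list of only 4 genes. KDM4C had normalized values of 966 and 942 in shLUC and of 1490 and 1728 in shSMARCA4, without overlap. Its log2 difference was 0.75 (SE 0.15, limma adjusted p 0.0302), higher in both libraries. The call was lost when either library of shLUC, shMAFK or shSMARCA4 was left out, with limma adjusted p-values of 0.0648 to 0.221. KDM4B, its paralog, was at -0.36 with a limma adjusted p of 0.349.

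ERV1 subfamilies are the elements that TNRC18 is known to silence, and their rows are given beside it for context. Of the 274 ERV1 rows 0 passed with limma in each of the 4 comparisons with shLUC. An unadjusted p under 0.05 was found for 9 ERV1 rows after SMARCA4 knockdown (3.28%, against 16.3% of all rows) and for 8 in shMAFK (2.92%, against 8.77%). The numbers were 4 for shE2F6 (1.46%, against 5.09%) and 30 for shKDM1A (10.9%, against 11.5%). Among all 977 rows of repeats the shares were 2.66%, 1.84%, 1.13% and 8.70%, which were also below those of all rows. The ERV1 rows had a median log2 difference of 0.08 with shSMARCA4 and with shKDM1A, of 0.07 with shE2F6 and of 0.03 with shMAFK. All rows of repeats had medians of 0.067 and 0.056 with shSMARCA4 and shKDM1A, and of 0.048 and 0.034 with shE2F6 and shMAFK.

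The group with the highest TNRC18 value had an ERV1 median near those of shE2F6 and shKDM1A, whose TNRC18 means were 70.5 and 247. A relation between the TNRC18 level and the ERV1 rows was not tested. Single libraries set against the shLUC mean gave ERV1 medians of -0.033 and 0.15 for the shSMARCA4 pair and of 0.056 and -0.012 for the shMAFK pair. The shE2F6 pair gave 0.072 and 0.089 and the shKDM1A pair 0.017 and 0.18. The shLUC libraries themselves were at 0.049 and -0.049. The shSMARCA4 median was -0.033 without shSMARCA4 replicate 2, and the shMAFK median was -0.039 without shLUC replicate 2. The sign of both medians thus changed with 1 library.

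Both knockdown values lay above both controls for 67 ERV1 rows after SMARCA4 knockdown (24.5%) and for 68 with shMAFK (24.8%), 74 with shE2F6 (27%) and 98 with shKDM1A (35.8%). In the same order, the shares above both controls were 25.6%, 23.8%, 20.3% and 17.9% over all rows. Over the rows of repeats they were 20.0%, 25.7%, 22.0% and 29.5%. Both values lay below both controls for 33 (12%), 39 (14.2%), 16 (5.84%) and 10 ERV1 rows (3.65%). The shares below both controls were 25.4%, 25.3%, 20.4% and 20.9% over all rows, and 8.39%, 10.2%, 7.16% and 4.81% over the rows of repeats. In shKDM1A the ERV1 calls depended on 1 library: without shKDM1A replicate 2, 40 rows passed (14.6%), 17 of them higher and 23 lower. In that fit 21.9% of all rows and 19.4% of the rows of repeats passed.

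**Figure D3:**
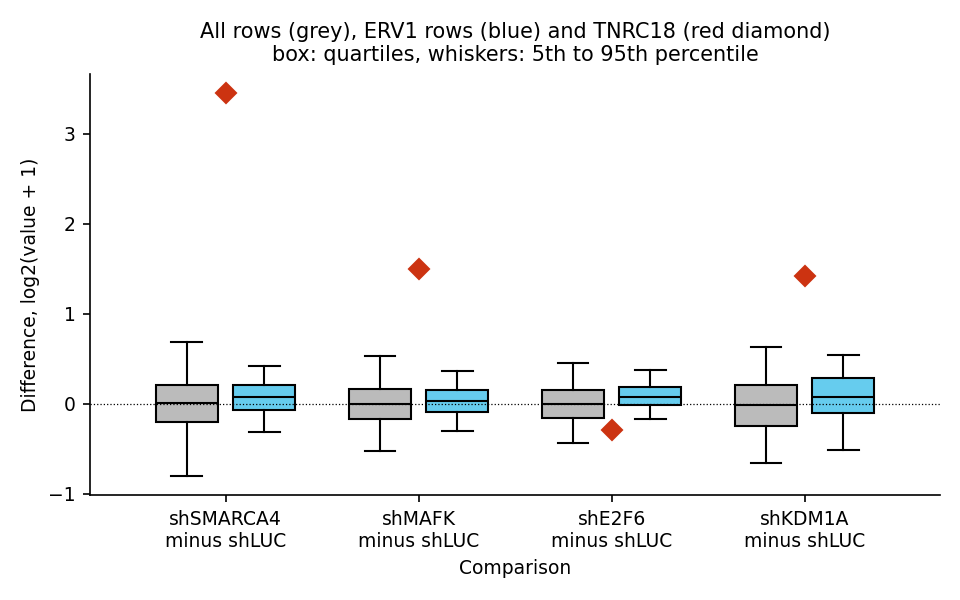
Log2 differences against shLUC for all 14785 rows (grey boxes), the 274 ERV1 rows (blue boxes) and TNRC18 (red diamonds); boxes are quartiles with the median, and whiskers reach from the 5th to the 95th percentile. ERV1 medians lie between 0.03 and 0.08 in all 4 comparisons, and TNRC18 takes values of 3.45, 1.49, -0.29 and 1.42.

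The 3 ERV1 rows with the largest positive difference in shSMARCA4 were LTR1C3 (1.11), LTR46-int (0.75) and HUERS-P1-int (0.65). LTR1C3 had normalized values of 65 and 50 in shLUC and of 114 and 135 in shSMARCA4 (limma adjusted p 0.11). The largest negative differences were those of HERVI-int (-0.76), LTR49-int (-0.62) and LTR77 (-0.57). LTR49-int had 2474 and 2258 in shLUC and 1497 and 1586 in shSMARCA4 (limma adjusted p 0.12 over all rows, 0.042 without both shKDM1A libraries). LTR1C3 also passed without both shKDM1A libraries (limma adjusted p 0.0358), so each direction was represented by 1 ERV1 row in that fit, where 7.86% of all rows passed. With group weights 3 ERV1 rows and 8.83% of all rows passed.

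The LTR12 and HERV9 rows, long terminal repeats and internal parts of a related ERV1 group, numbered 9. Their log2 differences in shSMARCA4 ran from -0.32 to 0.29 with a median of -0.06, and 0 passed with limma in any comparison. An unadjusted p under 0.05 was found for 2 of them in shKDM1A and 0 in the other knockdowns. In shKDM1A that is 22.2%, against 11.5% of all rows and 8.70% of the rows of repeats. LTR12C, which had 14834 and 13575 in shLUC, had 11997 and 10757 in shSMARCA4 and 18607 and 15759 in shKDM1A. The values of LTR12C in shSMARCA4 lay below both controls, with a log2 difference of -0.32 and a limma adjusted p of 0.381. In shKDM1A the 9 rows had a median of 0.25.

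The genes around TNRC18 were examined next. The table held 11 genes whose start lies within 500 kb of either end of TNRC18, and 0 of them passed with limma in any of the 4 comparisons. At an unadjusted limma p under 0.05 there were 2 in shSMARCA4 (18.2%, against 16.3% of all rows) and 2 in shMAFK (18.2%, against 8.77%). There was 1 in shE2F6 (9.09%, against 5.09%), and 0 in shKDM1A (against 11.5%). In shSMARCA4 their log2 differences ran from -0.63 to 1.17 with a median of 0.27. The highest was SLC29A4, a monoamine transporter whose last bases overlap those of TNRC18. It had 98 and 113 in shLUC and 198 and 285 in shSMARCA4 (log2 difference 1.17, SE 0.40, limma adjusted p 0.172). In shMAFK it had 73 and 75, and in shKDM1A 62 and 154, where both TNRC18 pairs lay above the controls.

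On the other side, FBXL18, an F-box gene whose start lies 88.4 kb from that of TNRC18, had 672 and 600 in shLUC and 828 and 830 in shSMARCA4. Its log2 difference was 0.38 (limma adjusted p 0.426). The noncoding AC092171.2, on the side of FBXL18, was at 0.42 (limma adjusted p 0.429). RADIL, a Rap effector on the side of SLC29A4, was at 0.82 (limma adjusted p 0.298). WIPI2 (-0.04), RBAK (-0.14) and RBAK-RBAKDN (0.27), on the side of SLC29A4, also did not pass. The same held for FSCN1 (0.04), RNF216 (0.29) and CCZ1 (-0.38), on the side of FBXL18. ACTB, cytoplasmic actin, took only the values 148866 and 61943, the highest steps of the table, so its log2 difference of -0.63 reflects 1 step in 1 library.

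**Figure D4:**
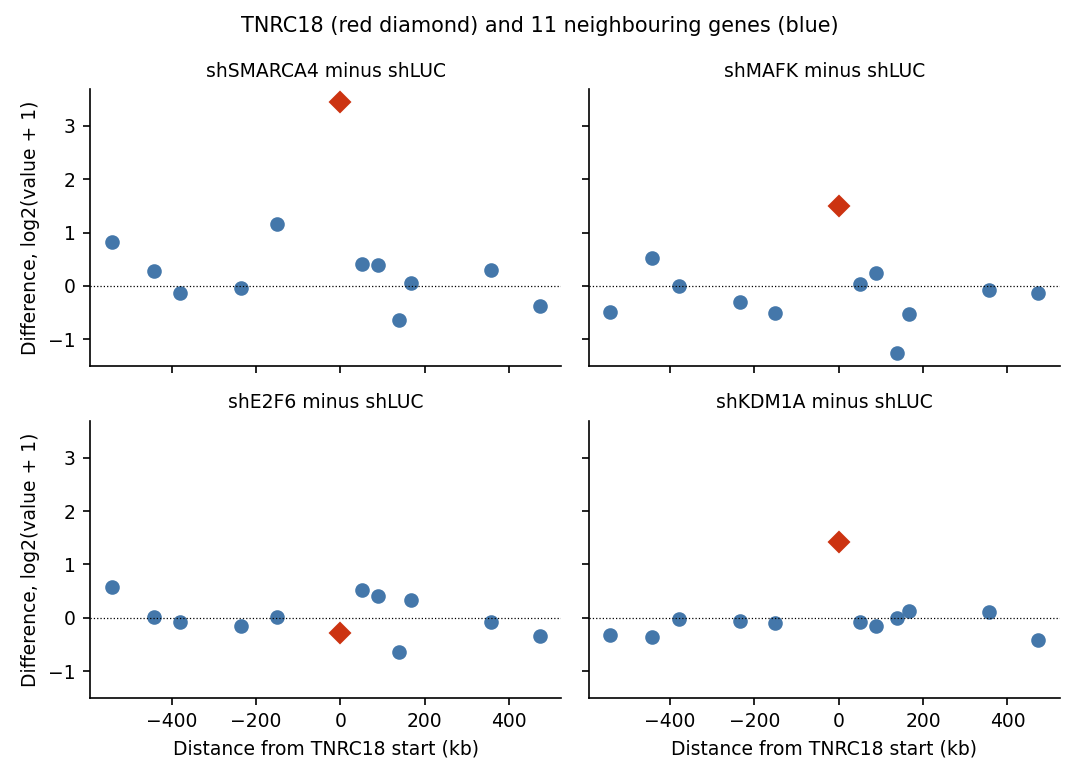
Log2 differences against shLUC of TNRC18 (red diamond) and the 11 neighbouring genes of the table (blue points) by the distance of their start from that of TNRC18 in kb, with 1 panel for each knockdown. In the shSMARCA4 panel TNRC18 is at 3.45 and the neighbours lie between -0.63 and 1.17; in the shMAFK and shKDM1A panels TNRC18 lies above all 11.

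To see which genes had a similar course over the 10 libraries, each row with a mean of at least 50 was centred on the log2 scale and compared with TNRC18. The measure was the root mean square difference over the libraries. TNRC18 itself differed from a flat profile by 1.36, and the median over 14735 rows was 1.39. The 8 nearest genes were SP8 (0.669), TMEM54 (0.685), TRPM4 (0.70), GFRA1 (0.701), MIR124-2HG (0.773), EBF3 (0.783), LEF1 (0.787) and FST (0.795). They were picked from the same libraries by this likeness, so their values are a description.

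SP8, a zinc finger transcription factor, had normalized values of 119 and 120 in shLUC, 475 and 473 in shSMARCA4, and 238 and 202 in shMAFK. In shKDM1A it had 114 and 153 and in shE2F6 88 and 72, so its shMAFK pair lay above both controls and its shKDM1A pair overlapped with them. TMEM54, a membrane protein gene, had 74 and 55 in shLUC, 413 and 452 in shSMARCA4, 189 and 146 in shMAFK and 166 and 292 in shKDM1A. TRPM4, a cation channel, had 126 and 108 in shLUC, 366 and 510 in shSMARCA4, 208 and 210 in shMAFK and 238 and 236 in shKDM1A. MIR124-2HG had 24 and 36 in shLUC, 138 and 162 in shSMARCA4, 77 and 62 in shMAFK and 38 and 58 in shKDM1A. TMEM54, TRPM4 and MIR124-2HG were thus above both controls in the same 3 knockdowns as TNRC18. LEF1, a Wnt pathway transcription factor, had 51 and 66 in shLUC and 168 and 202 in shSMARCA4, but 53 and 39 in shKDM1A.

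The profile of TNRC18 was also compared with mirror images. The 4 nearest were ACTA1 (0.514), AC089984.1 (0.561), ACTG2 (0.561) and TEK (0.596), which came closer than the nearest direct profile. ACTA1, skeletal muscle actin, had 286 and 226 in shLUC, 42 and 26 in shSMARCA4, 108 and 255 in shKDM1A and 455 and 536 in shE2F6. ACTG2, smooth muscle actin, had 118 and 94 in shLUC, 25 and 12 in shSMARCA4, 42 and 58 in shKDM1A and 217 and 340 in shE2F6. Both actin genes were lowest where TNRC18 was highest and highest in shE2F6, where TNRC18 was lowest. The mirror genes were picked by this opposition, so their values too are a description. In shMAFK, where TNRC18 lay above the controls, ACTA1 had 297 and 196 and ACTG2 100 and 88, which overlapped with shLUC. AC089984.1 (72 and 44) and TEK (296 and 297) lay below both controls there. TEK, an angiopoietin receptor, had 366 and 313 in shLUC, 60 and 54 in shSMARCA4 and 510 and 447 in shE2F6.

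**Figure D5:**
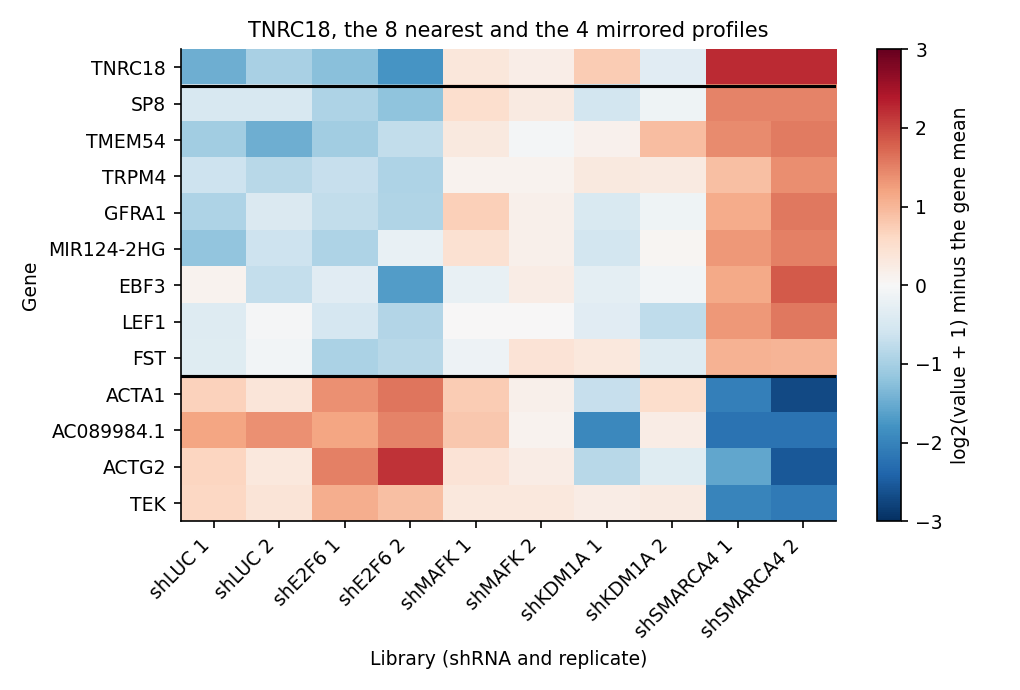
Centred log2(value + 1) of TNRC18 (top row), its 8 nearest profiles (middle) and the 4 nearest mirror profiles (bottom) in the 10 libraries, with replicate numbers after the shRNA; red is above and blue below the mean of the gene. All 8 nearest genes are highest in the shSMARCA4 libraries, and the 4 mirror genes are lowest there, as ACTA1 at 42 and 26 and TEK at 60 and 54.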

How the data were processed

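RNA of 10 libraries was measured by RNA-seq. The deposited values are scores, whole numbers that the authors normalized. The submitters' processing notes name STAR, STARsolo and hg38 without roles. The counter, annotation and normalization are not given in the sources used here. All libraries hold the same value at 80.3% of ranks, a form that quantile normalization leaves, so differences in total RNA are not seen and depth is unknown. Columns not mapped to a sample numbered 0.

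Values were tested as log2(value + 1), which understates differences of low rows, by two-sided moderated tests of limma 3.58.1 (R 4.3.3), with the trend option of eBayes. One fit held all libraries, with 5 residual degrees of freedom, over rows with a mean of at least 10, which removed none. Benjamini-Hochberg adjustment ran over all rows, with a threshold of 0.05. The fit was tested on simulated data. Tables used Python 3.11.15 and pandas 2.3.3, and plots matplotlib 3.10.9.

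TNRC18 and the lists were chosen with earlier results of these data known. Named genes were list members past the threshold, the 2 members of each list with the largest difference in shSMARCA4, the targets, the neighbours, the 3 ERV1 rows with the largest rise and fall there, and the 8 nearest and 4 mirror profiles. One list member that this rule names is not reported here. Alternatives covered pseudocount, filter, scaling, variance model, libraries and a replicate block.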

Additional observations from a re-analysis of the deposited data

How the results depend on the processing

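The shSMARCA4 difference of TNRC18 lay between 3.32 and 3.48 over 7 settings (pseudocount, filter, scaling and block) and between 3.21 and 3.70 when 1 library was left out. With group weights the shMAFK difference from shLUC passed (1.49), and that from shE2F6 passed under the same weights and also when both shKDM1A libraries were dropped (1.79 each). ERV1 calls in shSMARCA4 were 0 in the reported fit, 3 under group weights and 2 when both shKDM1A libraries were dropped. The cause was not tested.

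With 1 library left out, the TNRC18 difference ran from 1.25 to 1.73 for shMAFK minus shLUC, from 0.88 to 1.97 for shKDM1A minus shLUC, from 1.53 to 2.04 for shMAFK minus shE2F6 and from 1.17 to 2.26 for shKDM1A minus shE2F6. For shKDM1A minus shMAFK it ran from -0.61 to 0.47, above 0 without shKDM1A replicate 2 (0.47) or shMAFK replicate 1 (0.0030). ERV1 medians ran from -0.033 to 0.15 in shSMARCA4, from -0.039 to 0.079 in shMAFK, from 0.043 to 0.13 in shE2F6 and from 0.017 to 0.18 in shKDM1A. ERV1 calls ran from 0 to 2 in shSMARCA4 and from 0 to 40 in shKDM1A.

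The labels' replicate numbers were treated as names only. Correlations of replicate deviations ran from -0.05 to 0.337 over 10 pairs of groups, and 2 exceeded 0.1. With the number as a replicate block, TNRC18 kept its differences, with limma adjusted p-values of 0.164 for shMAFK, 0.956 for shE2F6 and 0.233 for shKDM1A against shLUC, and of 0.0677, 0.113 and 0.933 for the other pairs. The block changed no call among the results recomputed.

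In shSMARCA4 without 1 library, MIXL1 ran from 2.91 to 6.67, NODAL from 2.56 to 4.22, ZIC1 from 1.95 to 3.07 and KRT7 from -3.04 to -2.50. All 4 calls were lost without shLUC replicate 2 (limma adjusted p 0.227, 0.128, 0.0746 and 0.0677), and that of MIXL1 also after quantile normalization (0.0507). These list members were recomputed after the data were seen.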
